A study of Mus musculus with 18 samples.

Results

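The 45 genes described here encode proteins of mitosis: the kinase CDK1 with its cyclins and activating phosphatases, the Polo and Aurora kinases, the spindle checkpoint, the machinery of anaphase, kinetochore, spindle and cytokinesis proteins, condensins and the transcription factor FOXM1. They were chosen by name as a set of textbook mitosis genes, with earlier results of these data known. All 45 were found among the 41325 entries of the count table, and all 45 were among the 19941 genes with enough counts to be tested. The lowest count of any of them in any library was 284 reads, for Pttg1. RNA was measured in wild-type mouse ovary, in mural granulosa cells, which line the follicle wall, and in the cumulus layer around the oocyte. Cells were taken 0, 4 or 12 h after hCG (human chorionic gonadotropin, which acts on the luteinizing hormone receptor and triggers ovulation), with 3 libraries in each of the 6 groups. The groups at 0 h are the controls. Groups follow the sample titles, because of the 9 cumulus titles 8 carry the mural cell type in the cell type field and 1 carries none.

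Granulosa cells of a growing follicle divide until the ovulatory surge of luteinizing hormone, after which they leave the cell cycle and differentiate into luteal cells. Transcripts of mitosis genes are made mainly from S phase to mitosis: outside that window the DREAM complex holds their promoters silent, and B-Myb and FOXM1 activate them later through the same sites. Those sites are CHR elements (cell cycle genes homology region). Many of these promoters also hold CCAAT boxes, which bind the factor NF-Y. Oocytes are also rich in some of these transcripts, because they store RNA for meiosis and for the first divisions of the embryo.

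RefSeq promoter windows (GRCm38.p6, from 250 bases before to 50 bases after the start site) were at hand for 37 of the 45 genes, in 39 windows. Ccna2, Cdc25c, Aurkb, Incenp, Tpx2, Kif20a, Smc4 and Foxm1 had none. The windows were searched on both strands for the CHR motif, spelled TTTGAA or TTCGAA, and for the CCAAT box, spelled CCAAT. The 7 windows below run from 110 bases before to 20 bases after the start, read 5′ to 3′ on the strand of the gene, with each motif in capitals (TTCAAA and ATTGG are the motifs on the other strand). They are shown because the genes behave differently after hCG. Ccnb2, Hmmr, Racgap1 and Kif11 fell at 4 h in both cell types. Cdc20 was called lower at 4 h in cumulus cells only, and Cdk1 was not called at 4 h against 0 h in either. Ccnb1 was called higher in cumulus cells at 4 h, a call that was lost when certain libraries were left out, as given below. Of the other genes called higher there, Prc1 held both motifs (windows not shown), while Plk4 and Pttg1 held neither. Whether the motifs go with the response was not tested.
Ccnb2 (chr9:70421535-70421664, minus strand): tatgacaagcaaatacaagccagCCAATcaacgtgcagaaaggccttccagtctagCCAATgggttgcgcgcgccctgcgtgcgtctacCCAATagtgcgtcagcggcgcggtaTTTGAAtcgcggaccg
Hmmr (chr11:40733418-40733547, minus strand): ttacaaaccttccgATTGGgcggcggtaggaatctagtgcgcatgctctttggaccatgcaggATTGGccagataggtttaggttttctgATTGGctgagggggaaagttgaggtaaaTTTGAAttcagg
Racgap1 (chr15:99651637-99651766, minus strand): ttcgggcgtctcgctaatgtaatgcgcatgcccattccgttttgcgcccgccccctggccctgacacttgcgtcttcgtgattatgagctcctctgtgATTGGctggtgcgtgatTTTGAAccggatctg
Kif11 (chr19:37376272-37376401, plus strand): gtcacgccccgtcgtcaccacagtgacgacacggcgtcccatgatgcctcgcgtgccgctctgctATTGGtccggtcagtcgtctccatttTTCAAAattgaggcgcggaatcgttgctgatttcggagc
Cdc20 (chr4:118437324-118437453, minus strand): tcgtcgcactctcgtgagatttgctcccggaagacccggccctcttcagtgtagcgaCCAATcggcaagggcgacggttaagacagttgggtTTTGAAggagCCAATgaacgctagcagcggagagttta
Cdk1 (chr10:69352893-69353022, minus strand): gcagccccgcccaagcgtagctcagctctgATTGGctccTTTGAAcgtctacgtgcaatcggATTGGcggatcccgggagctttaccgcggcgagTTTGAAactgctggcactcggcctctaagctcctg
Ccnb1 (chr13:100786467-100786596, minus strand): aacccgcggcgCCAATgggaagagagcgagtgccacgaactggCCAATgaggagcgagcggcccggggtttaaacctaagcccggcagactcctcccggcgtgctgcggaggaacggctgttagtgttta

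In Ccnb2 the CHR motif lies at bases 5 to 10 after the start and CCAAT boxes precede it. In Hmmr the CHR lies at bases 9 to 14, after CCAAT boxes on the other strand. In Cdk1 the nearer CHR lies at bases -15 to -10, before the start. The window of Ccnb1 holds CCAAT boxes and no CHR of this spelling. Over the set, 28 of 37 genes (75.7%) held a CHR motif, 27 (73%) a CCAAT box and 25 (67.6%) both. By window, 76.9% of the 39 windows of mitosis genes held a CHR motif, beside 19.2% of all 32851 windows and 14.7% of the 17450 windows of genes tested here. A CHR motif between base -60 and base 50 was present in 71.8% of the windows of mitosis genes, beside 5.9% of all windows and 4.18% of those of genes tested. Both motifs occurred together in 69.2% of the windows of mitosis genes, beside 7.52% and 5.86%. No motif was found for Birc5, Mad2l1, Ncaph, Nuf2, Nusap1, Plk4 and Pttg1, a CHR motif alone for Anln, Kif2c and Ndc80, and a CCAAT box alone for Ccnb1 and Cenpe. A match describes letters in a window, not a bound site.

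**Figure D1:**
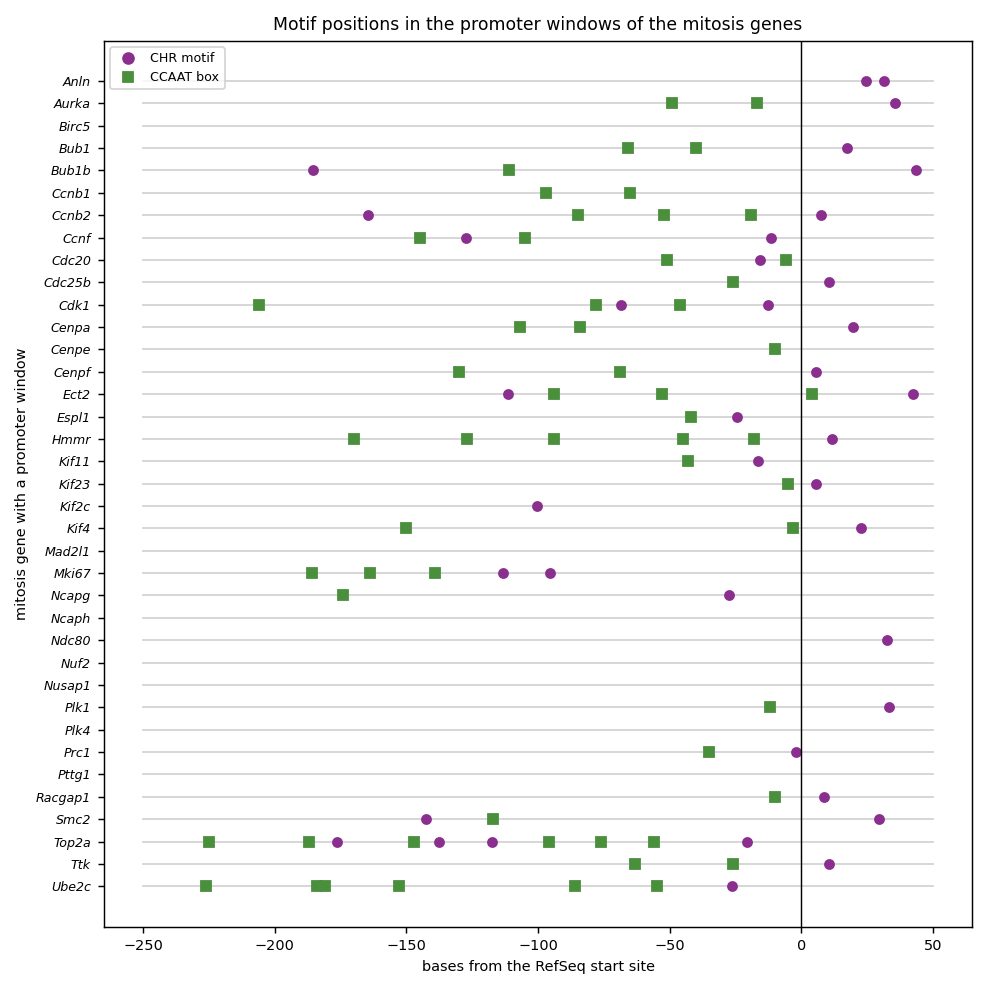
Position of each CHR motif (circles) and CCAAT box (squares) in the promoter windows of 37 mitosis genes, as bases from the RefSeq start site (vertical line), 1 window per gene. CHR motifs gather around the start and CCAAT boxes mostly before it, and 7 genes show neither.

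The 18 libraries held 32211630 to 47919446 counts. Levels are given as CPM, the gene's share of the library's counts in parts of a fixed total, after scaling by the trimmed mean of M values. The markers of mural cells followed the titles: Lhcgr, the receptor for luteinizing hormone, stood at 569 to 729 CPM in mural libraries at 0 h and at 2.41 to 13.7 CPM in cumulus libraries, while Foxl2 and Fshr were present in both. Of the markers for cumulus cells, Slc38a3 did not separate the groups at 0 h (137 to 162 CPM in mural and 96.1 to 148 in cumulus libraries). The 7 theca markers were Cyp17a1, Insl3, Star, Hsd3b1, Ptch1, Gli1 and Lhcgr, the last of which is also the mural marker above. They summed to 4553 to 5535 CPM in mural and 263.1 to 421.2 CPM in cumulus libraries at 0 h. The part of the theca markers in the comparisons of cell types was not tested. RNA of the oocyte differed widely between libraries. The summed level of 20 oocyte markers was 531.2, 2445 and 2523 CPM in cumulus libraries at 0 h, 2896, 1538 and 9335 at 4 h, then 10.73, 16.5 and 8.849 at 12 h, and it lay between 159.8 and 755.7 CPM in the 9 mural libraries. Of the defining markers, Zp3 ran from 42 to 655 CPM in cumulus libraries at 0 and 4 h and from 0.0296 to 0.158 CPM at 12 h. Replicate 3 of cumulus cells at 4 h stands apart by its oocyte sum and replicate 1 at 0 h by its mitochondrial share (12.8%, beside 8.49 and 8.5%), so counts are also given without both. The labels do not say whether the 3 libraries of a group are separate animals or pools. Their spread, on which every p-value rests, could therefore be technical. In bulk samples, fewer dividing cells and less RNA per cell cannot be told apart.

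Before hCG the summed level of the 45 genes was 5346, 4767 and 4270 CPM in mural and 6303, 5858 and 6193 CPM in cumulus libraries, so every cumulus library lay above every mural one. Per kilobase of exon, the most abundant was Ccnb2, a B-type cyclin and partner of CDK1, at 59.8 ± 9.97 CPM per kb in mural and 94.3 ± 13.7 in cumulus cells (SD, n = 3). Cdc20, the activator of the anaphase-promoting complex (APC/C), came next at 58.1 ± 9.14 and 92.2 ± 11.1 CPM per kb. These neighbours do not differ beyond their spread. In mural cells Top2a, topoisomerase II alpha, followed at 53.7 ± 7.19 and Smc4, an ATPase of condensin, at 52.1 ± 4.45 CPM per kb. In cumulus cells Smc4 followed at 73.8 ± 1.76 CPM per kb, ahead of Ube2c, the ubiquitin-conjugating enzyme of the APC/C, at 65.9 ± 7.5.

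In mural granulosa cells many mitosis genes fell after hCG, and none was called higher against 0 h with all libraries in the fit. At 4 h 21 of 45 were called lower (adjusted p under 0.05 in edgeR's quasi-likelihood test over all genes) and 0 higher, where 22.3% of all genes tested were called lower and 22.8% higher. Their median change was -0.34 on the log2 scale and that of all genes tested -0.06. At 12 h 27 of 45 were called lower and 0 higher, beside 19% and 21.6% of all genes, with medians of -0.58 and -0.05. The group mean was highest at 0 h for 35 of the genes, and lowest at 12 h for 31 and at 4 h for 12. These counts were not made over all genes tested. Of the calls, 15 of 21 at 4 h and 22 of 27 at 12 h held when each library was left out in turn. The fewest came without replicate 1 of the 0 h libraries (15 and 22), which was the highest of its group for 41 of the 45 genes, where this held for 43.9% of all genes. In the main fit the spread of each gene was estimated over all 6 groups, cumulus libraries included. With only the groups compared in the fit, every call held. A further 10 genes were then called at 4 h and 8 at 12 h, where 2.86% of the calls were higher. Counts from refits are given here and below without the share of all genes called in the same refit. Markers of other cells moved over the same hours. From 0 to 12 h the summed level of 8 endothelial markers went from 38.49 to 56.03 CPM up to 133.7 to 165.2, that of 6 erythroid markers from 87.67 to 145.2 up to 380.4 to 733.6, that of 6 neutrophil markers from 0.1952 to 0.7648 up to 9.269 to 11.96, and that of the theca markers from 4553 to 5535 down to 3186 to 3628. Their part in the changes of the mitosis genes was not tested.

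Among the cyclins and their kinase the fall was uneven. Ccnb2 (chr9:70407692-70421547, GRCm38) stood in mural libraries at 108, 87.5 and 78.8 CPM at 0 h, at 32, 33.4 and 35.1 at 4 h, then at 57.4, 56.1 and 59.5 at 12 h. The 3 groups do not overlap, and the lowest values are those at 4 h. The change was -1.45 ± 0.14 (log2 ± SE) from 0 to 4 h (adjusted p = 1.01e-07), the largest fall of the set, and +0.79 ± 0.13 from 4 to 12 h (adjusted p = 0.00016). Its close relative Ccnb1, the main cyclin of mitotic entry, was at 107, 103 and 93.8 CPM at 0 h, 102, 128 and 100 at 4 h, then 107, 118 and 119 at 12 h. The groups of Ccnb1 overlap, and neither time was called (4 h against 0 h 0.12 ± 0.17, 12 h against 0 h 0.18 ± 0.17). Cdk1 (chr10:69335146-69352938) was at 99.1, 100 and 82.8 CPM at 0 h, 102, 113 and 102 at 4 h, then 83.4, 85.4 and 83 at 12 h, and was not called against 0 h. Ccna2, which partners CDK1 and CDK2 from S phase on, changed by -0.58 ± 0.12 at 4 h (adjusted p = 0.000536) and -0.59 ± 0.12 at 12 h (adjusted p = 0.000491). In all, 3 of the 7 genes of CDK1, cyclins and CDC25 phosphatases were called lower at 4 h and 4 at 12 h. Reads of a gene and of its copies may be split: the annotation names a pseudogene copy of Ccnb1, Ccnb2 and Kif4. Likewise 7 of the 45 genes share over 10% of their exon bases with a gene on the opposite strand, Ccna2 (12.5%), Kif20a (29.3%) and Ube2c (22.8%) among them, and the strand setting of the counting is not given in the sources used here.

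Of the 4 Polo and Aurora kinases only Aurkb, the kinase of the chromosomal passenger complex, was called at 4 h. It stood at 100, 95.8 and 68.3 CPM at 0 h, 54, 45.3 and 52.2 at 4 h, then 46.4, 39.4 and 43.6 at 12 h, with changes of -0.80 ± 0.16 (adjusted p = 0.000584) and -1.03 ± 0.16 (adjusted p = 5.62e-05). All values at 4 and 12 h lie below all at 0 h. Aurka, which acts at the centrosome and spindle poles, was not called at either time (0.13 ± 0.13 and -0.03 ± 0.13). Plk4, the kinase of centriole duplication, was at 64.5, 71.8 and 65.5 CPM at 4 h, then 41, 35.9 and 39.5 at 12 h, and was called lower at 12 h only, by -0.71 ± 0.14 (adjusted p = 0.00061). Plk1, which acts from mitotic entry to cytokinesis, was not called.

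The spindle checkpoint holds anaphase until chromosomes are attached. Of its 4 genes Bub1 was called lower at both times, from 121, 103 and 90.6 CPM at 0 h to 80.3, 77.7 and 69.9 at 4 h, then 53.5, 52.1 and 52 at 12 h (-0.47 ± 0.12 at 4 h, adjusted p = 0.0036, and a call at 12 h with adjusted p = 2.2e-06). The values step down without overlap. Mad2l1 was at 71.7, 86.5 and 70 CPM at 4 h, then 45.5, 40.4 and 42.5 at 12 h, a change of -0.83 ± 0.11 between them (adjusted p = 7.61e-06), the largest fall of the set from 4 to 12 h. Bub1b, which encodes BUBR1, was at 145, 130 and 134, then 95.6, 94.9 and 90.3, then 118, 109 and 117 CPM. These groups do not overlap, but Bub1b was not called (-0.54 ± 0.31 at 4 h). The SE rests on the spread over all 6 groups. The SD of Bub1b was 288 CPM in cumulus cells at 4 h, beside 8.04 and 2.87 in mural cells at 0 and 4 h.

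The 4 genes of anaphase, which act on the destruction of securin and cyclin B and on separase, mostly did not pass the test. None was called at 4 h, and at 12 h only Espl1, separase, was (-0.85 ± 0.19, adjusted p = 0.0017). Ube2c stood at 100, 88.3 and 75.2 CPM at 0 h and 93, 89.5 and 81.2 at 12 h, which overlap. Cdc20 was at 128, 99.4 and 98 CPM at 0 h and 94.1, 87.8 and 94.5 at 12 h and was not called (-0.24 ± 0.10). Both chromosomal passenger genes were called lower at both times: Birc5, survivin, by -0.64 ± 0.22 and -0.70 ± 0.22, and Incenp, the scaffold of the complex, by -0.27 ± 0.10 and -0.74 ± 0.10. At 4 h, however, neither call held without replicate 1 of the 0 h group (adjusted p = 0.0781 for Birc5 and 0.0751 for Incenp) or without replicate 2 of the 4 h group (0.101 and 0.137). At 12 h that of Birc5 was lost without replicate 1 of the 0 h group (adjusted p = 0.0756) or replicate 2 of the 12 h group (0.0654).

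At the kinetochore 3 of 5 genes were called lower at 4 h and 4 of 5 at 12 h. Cenpf, a large kinetochore protein, was at 117, 102 and 97.8 CPM at 0 h, 72.4, 59.2 and 58.2 at 4 h, then 71.1, 63.8 and 78.6 at 12 h, a change of -0.74 ± 0.19 at 4 h (adjusted p = 0.00417). Its values at 4 and 12 h overlap and all lie below those at 0 h. Cenpa, the histone H3 variant of centromeres, was the one not called at 12 h (-0.07 ± 0.12). Of the 6 spindle genes 4 were called lower at 4 h and 3 at 12 h. Hmmr, a spindle and centrosome protein that also carries the name of hyaluronan receptor, was at 51.8, 50 and 40.1 CPM at 0 h, 31.2, 32.7 and 30.8 at 4 h, then 50.9, 51.7 and 53.3 at 12 h. It fell by 0.58 on the log2 scale at 4 h (adjusted p = 0.00165) and rose by 0.72 ± 0.13 from 4 to 12 h (adjusted p = 0.00039), where its values overlap those at 0 h. Kif11, the motor that pushes spindle poles apart, was called lower at both times (-0.47 ± 0.12 and -0.53 ± 0.12).

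Genes of cytokinesis mostly did not pass the test in mural cells. Only Racgap1 and Anln of 6 were called lower at 4 h and only Racgap1 at 12 h. These shares of 33.3% and 16.7% stand beside 22.3% and 19% of all genes tested. Racgap1, a subunit of centralspindlin, was at 179, 151 and 136 CPM at 0 h, 100, 102 and 94.5 at 4 h, then 96.5, 91.5 and 95.9 at 12 h (-0.72 ± 0.10 at 12 h, adjusted p = 1.96e-05). Anln, the scaffold of the contractile ring, was at 122, 114 and 113 CPM at 0 h, 84.4, 86.5 and 83.1 at 4 h, then 102, 110 and 121 at 12 h. Its values at 12 h overlap those at 0 h, and the rise from 4 to 12 h was 0.39 ± 0.11 (adjusted p = 0.011). Kif23, the partner of Racgap1 in centralspindlin, and Prc1, which bundles the midzone, were not called at either time. Kif23 was at 100 to 114 CPM at 0 h and 69.9 to 82.5 at 12 h, without overlap. Its SD was 102 CPM in cumulus cells at 4 h, which are part of the same fit.

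All 6 genes of chromosome structure were called lower at 12 h and 4 of them at 4 h. Mki67, which encodes the proliferation marker Ki-67, was at 451, 417 and 356 CPM at 0 h, 257, 227 and 210 at 4 h, then 189, 170 and 205 at 12 h, and its change of -1.12 ± 0.12 at 12 h was the largest of the set (adjusted p = 5.15e-07). Top2a was at 546, 489 and 417, then 333, 361 and 322, then 249, 246 and 253 CPM, with no overlap (-0.96 ± 0.15 at 12 h, adjusted p = 4.06e-05). Foxm1, the transcription factor of many of these genes, was at 119, 103 and 90, then 83, 79.9 and 71.8, then 62.4, 55.3 and 55.6 CPM, a change of -0.85 ± 0.12 at 12 h (adjusted p = 8.82e-06).

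Between 4 and 12 h the mural set moved in both directions. Of the 45 genes 3 were called higher (Ccnb2, Hmmr and Anln), beside 18.3% of all genes tested, and 11 lower, beside 16.1%. The largest falls among the called genes were those of Mad2l1 (-0.83 ± 0.11, adjusted p = 7.61e-06), Plk4 (-0.79 ± 0.14, adjusted p = 0.000299) and Espl1, which encodes separase (-0.64 ± 0.19, adjusted p = 0.0152). Espl1 was at 97.3, 81.2 and 82.9 CPM at 4 h and 62.4, 48.1 and 57.3 at 12 h, without overlap, and its call was lost without replicate 2 of 12 h or replicate 1 of 4 h (adjusted p = 0.0785 and 0.0609). With library totals in place of the trimmed mean the counts were 6 higher and 6 lower. The median was then -0.05, beside 0.16 for all genes. With only the groups compared in the fit 28 genes were called, 7 higher and 21 lower.

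**Figure D2:**
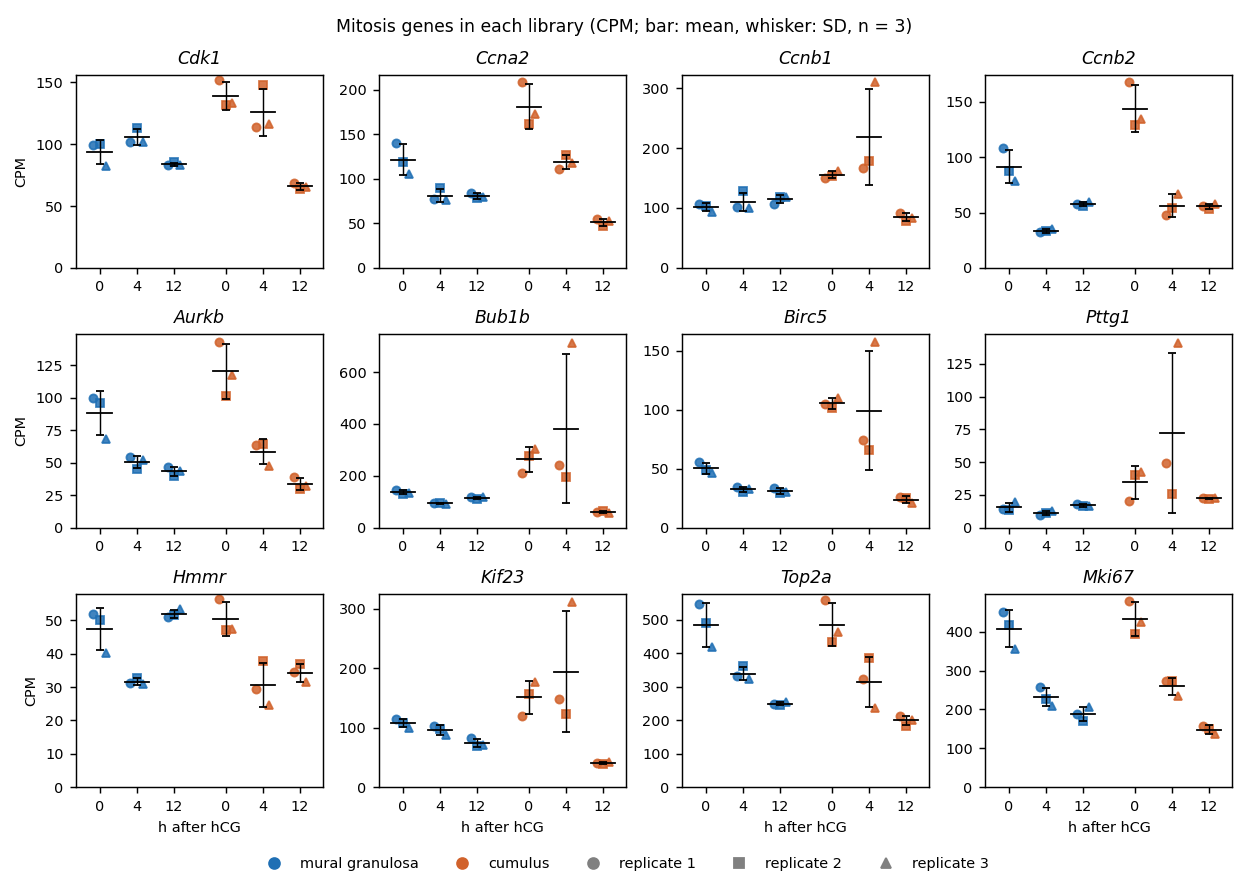
CPM of 12 mitosis genes in each of the 18 libraries by hours after hCG, with mural granulosa in blue and cumulus in orange, symbols for replicates 1 to 3, a bar at the mean and whiskers of 1 SD (n = 3). Ccnb2 is lowest at 4 h in mural cells, and the cumulus library of replicate 3 at 4 h lies far above the others of its group for Bub1b, Pttg1, Kif23, Birc5 and Ccnb1.

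In cumulus libraries more of the set was called lower than higher at 4 h, and nearly all of it was called lower by 12 h. At 4 h 4 genes were called higher than at 0 h (Ccnb1, Plk4, Pttg1 and Prc1) and 15 lower, where 25% of all genes tested were called higher and 22.8% lower. The median change was -0.10, and that of all genes 0.13. At 12 h 43 of 45 were called lower than at 0 h and 0 higher, beside 32.9% and 31.2% of all genes, with medians of -1.28 and -0.09. Against 4 h 42 were called lower and 0 higher, beside 31.3% and 29.2%, with medians of -1.08 and -0.04. The group mean was lowest at 12 h for 44 of the 45 genes, a count not made over all genes tested. The oocyte marker sum moved with these changes, from 531.2 to 2523 CPM at 0 h and 1538 to 9335 at 4 h down to 8.849 to 16.5 at 12 h, and its part in them was not tested beyond these comparisons, which were also made with this sum as a covariate and without the 2 libraries that stand apart. From 0 to 12 h the theca marker sum went from 263.1 to 421.2 CPM up to 1238 to 1432. In replicates 1 and 2 of 12 h, 2 of the 7 theca markers had 0 counts. The endothelial sum went from 25.34 to 29.01 up to 166.1 to 203.1. The sum of 4 markers enriched in mural cells went from 31.41 to 76.14 up to 346.3 to 384. Most of this sum at 12 h was Cyp11a1, at 351, 340 and 377 CPM beside 14.3, 16 and 3.03 at 0 h. Lhcgr, also in that list, was at 13.7, 9.44 and 2.41 CPM at 0 h and 4.88, 3.69 and 3.49 at 12 h. The mitochondrial share of counts went from 8.49 to 12.8% down to 2.52 to 2.98%. The part of these in the changes was not tested.

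Of the 4 genes called higher at 4 h, 3 depended on 1 library. Pttg1, securin, the inhibitor of separase, was at 20.3, 40.2 and 42.6 CPM at 0 h and 49.3, 25.6 and 141 at 4 h, where the highest value is that of replicate 3. The groups overlap. Its change was 1.06 ± 0.41 (adjusted p = 0.0393), 0.12 without replicate 3 of 4 h (adjusted p = 0.792) and -0.14 without both libraries (adjusted p = 0.667). Without replicate 1, 2 or 3 of the 0 h group it also missed the threshold (adjusted p = 0.205, 0.0871 and 0.0709). Ccnb1 was at 150, 154 and 162 CPM at 0 h and 166, 178 and 311 at 4 h, and its change of 0.49 ± 0.17 became 0.15 without replicate 3 (adjusted p = 0.25). That call was also lost without replicate 1 or 2 of the 0 h group (adjusted p = 0.076 and 0.0593). Prc1 was at 115, 135 and 132, then 143, 136 and 271 CPM, and its change of 0.52 ± 0.18 became 0.13 without replicate 3 of 4 h (adjusted p = 0.255) and 0.45 without replicate 1 of 0 h (adjusted p = 0.0937). Plk4, at 60.8, 70.8 and 68.7 CPM at 0 h and 79.7, 89.8 and 128 at 4 h, has no overlap and was called higher also when each library was left out in turn (0.57 ± 0.14, adjusted p = 0.00313).

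Without replicate 3 of 4 h 24 members were called in this comparison, 1 higher and 23 lower, and without both libraries that stand apart 27, 1 higher and 26 lower, with a median of -0.30. Without replicate 2 of 4 h, which had the lowest oocyte sum of its group, 11 were called higher and 15 lower, and without replicate 1 of 0 h 1 was called higher and 12 lower. With library totals as the scale 1 was called higher and 20 lower, and with only the 2 cumulus groups in the fit 10 were called, all lower. The medians were then -0.24 and -0.15, beside -0.01 and 0.08 for all genes. Ccnb2 was at 168, 129 and 135 CPM at 0 h and 47.4, 54.5 and 67.2 at 4 h, a change of -1.36 ± 0.13 (adjusted p = 1.85e-07). Aurkb was at 143, 101 and 117, then 63.7, 64.4 and 47.1 CPM (-1.04 ± 0.16, adjusted p = 4.17e-05), and Cdc25c, a phosphatase that activates CDK1, changed by -0.79 ± 0.15 (adjusted p = 0.000282). In each of these 3 genes every value at 4 h lies below every value at 0 h. With the oocyte covariate Ccnb2 changed by -1.29, Aurkb by -0.83 and Cdc25c by -0.59, all called.

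By 12 h the cumulus values were tightly grouped and low. Ccna2 was at 209, 161 and 173 CPM at 0 h, 111, 127 and 118 at 4 h, then 54.4, 47.1 and 52.3 at 12 h, with no overlap (-1.82 ± 0.12 at 12 h against 0 h, adjusted p = 4.43e-10). Cdk1 was at 152, 132 and 133, then 114, 148 and 116, then 68.7, 63.6 and 65.3 CPM (-1.08 ± 0.11, adjusted p = 1.18e-07). The values of Cdk1 at 0 and 4 h overlap, and those at 12 h lie below both. Ccnb2 was at 55.5, 53 and 57.9 CPM at 12 h, among its values at 4 h (-0.02 ± 0.13 from 4 to 12 h). Hmmr, at 29.3, 37.9 and 24.7 CPM at 4 h, then 34.5, 36.8 and 31.5 at 12 h, and Cenpa, at 113, 127 and 96.8 and then 100, 106 and 98.4, were likewise not called between 4 and 12 h, and these 3 are the only ones.

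The largest falls from 0 to 12 h were those of Nuf2, Bub1b and Birc5. Nuf2, a subunit of the NDC80 complex that holds microtubules, was at 63.2, 71.3 and 72.1 CPM at 0 h, 51.8, 54.7 and 97.2 at 4 h, then 14, 16.2 and 15.9 at 12 h (-2.17 ± 0.18, adjusted p = 1e-08). Bub1b was at 211, 275 and 302, then 240, 193 and 713, then 58, 63.1 and 55.8 CPM (-2.15 ± 0.33, adjusted p = 1.78e-05). Birc5 was at 105, 101 and 110, then 73.8, 65.8 and 157, then 25.7, 24.9 and 20.6 CPM (-2.15 ± 0.23, adjusted p = 2.94e-07). In each the values at 12 h lie below all earlier ones. Against 4 h the largest falls were those of Bub1b (-2.69 ± 0.33, adjusted p = 2.39e-06), Kif23 (-2.26 ± 0.25, adjusted p = 6.22e-07) and Ncapg, a subunit of condensin I (-2.25 ± 0.26, adjusted p = 1.25e-06). Without replicate 3 of 4 h that of Bub1b was -1.91 (adjusted p = 2.69e-10) and the change of Pttg1 between 4 and 12 h went from -1.69 to -0.79 (adjusted p = 0.0391). Pttg1 and Anln were not called at 12 h against 0 h. Pttg1 was at 22.7, 22 and 22.3 CPM at 12 h, between the libraries of 0 h (-0.62 ± 0.41), and Anln at 73.9, 75.4 and 66.5 CPM beside 90, 77.4 and 77.2 at 0 h (-0.18 ± 0.11).

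With the oocyte sum as a covariate, 25 of the 45 genes were called at 12 h against 0 h, 24 lower and 1 higher (Pttg1, 3.26, adjusted p = 0.000788). The median was then -1.07, beside 0.05 for all genes. The covariate was the log2 of this sum, fitted over all 18 libraries. The 3 libraries of 12 h lie far below the range of the sum within any other group. The covariate and the 12 h group can therefore hardly be told apart. Among the 24 were Aurkb (-3.07, adjusted p = 6.95e-07), Top2a (-2.52, adjusted p = 3.07e-07), Ccna2 (-2.46), Mki67 (-2.18), Cdk1 (-1.77), Ccnb2 (-1.71) and Foxm1 (-1.67). Bub1b (0.19), Ttk (-0.05), Kif23 (-0.20), Kif4 (-0.11), Ncapg (-0.04) and Prc1 (0.30) were among those no longer called. Without the 2 libraries that stand apart 44 genes were called lower. Replicate 1 of cumulus cells at 0 h, the library set apart by its mitochondrial share of 12.8%, had an oocyte sum of 531.2 CPM, the lowest of its group but far above the 8.849 to 16.5 CPM of 12 h. In it 44 of 45 genes were higher than in every cumulus library of 12 h, where this held for 45.1% of all genes. The exception was Pttg1. The median log2 ratio of that library to the mean of 12 h was 1.3, and that of all genes 0.0154.

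**Figure D3:**
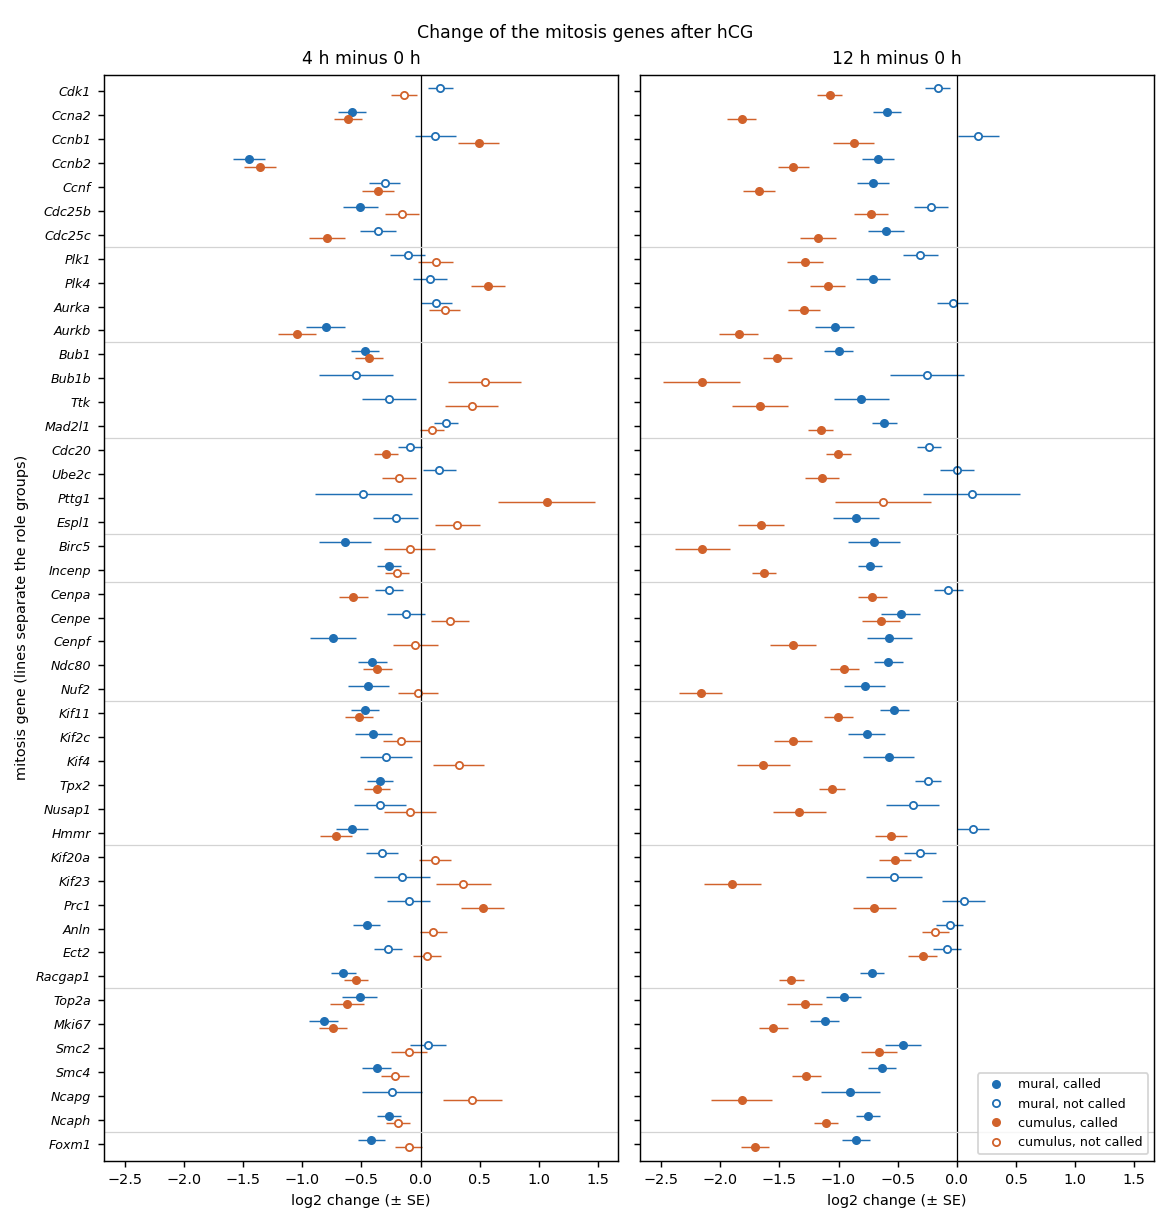
Log2 change ± SE of each of the 45 mitosis genes from 0 to 4 h (left) and from 0 to 12 h (right), in mural granulosa (blue) and cumulus cells (orange), with filled points for called genes and grey lines between the role groups. In cumulus cells 43 genes are called lower at 12 h, and the 4 genes called higher at 4 h are Ccnb1, Plk4, Pttg1 and Prc1.

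The cumulus libraries of 0 and 4 h differed among themselves, by amounts that varied from gene to gene. Replicate 3 of cumulus cells at 4 h, with 4.21 times the oocyte sum of the mean of the other two, was above both for 34 of the 45 genes, where this held for 41% of all genes tested, and below both for 8, where this held for 42%. The largest ratio was that of Pttg1, 3.76, then of Bub1b, 3.3, Ncapg, 2.45, Ttk, 2.3, and Kif23, 2.3. The 8 genes below both others were Mki67, Cenpa, Kif11, Hmmr, Aurkb, Ube2c, Top2a and Smc2, the condensin ATPase that pairs with Smc4, with ratios from 0.861 for Mki67 to 0.661 for Smc2. At 0 h replicates 2 and 3 had 4.68 times the oocyte sum of replicate 1, and the mean of the 2 over replicate 1 was 2.04 for Pttg1, 1.4 for Ncapg and 1.37 for Bub1b, but 0.811 for Smc2 and 0.759 for Aurkb. The mitochondrial shares of replicates 1 to 3 were 12.8, 8.49 and 8.5%. The median log2 ratio of the mitosis genes was 0.439 in the 4 h libraries, beside -0.0374 for all genes, and -0.0457 in those of 0 h, beside -0.0851. Over the 45 genes the log2 ratios from these separate sets of libraries had a Pearson r of 0.854 and a Spearman rho of 0.874, a description across genes that share the libraries and their depth. The part of oocyte RNA or of the mitochondrial share in these ratios was not tested.

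**Figure D4:**
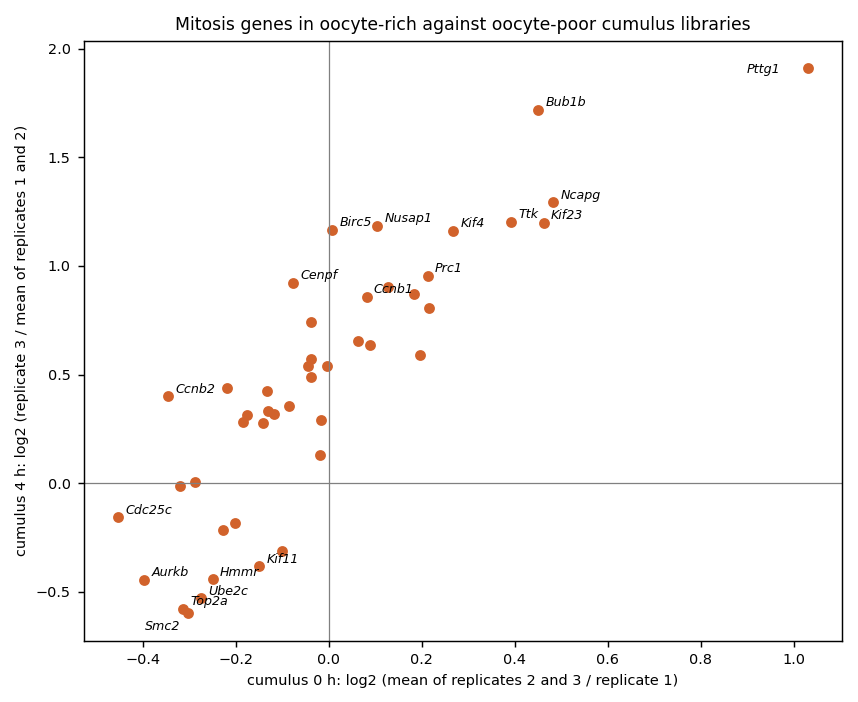
Each point is a mitosis gene, with its log2 ratio between cumulus libraries rich and poor in oocyte RNA at 0 h (x axis) and at 4 h (y axis). Pttg1, Bub1b, Ncapg, Ttk and Kif23 lie at the upper right, and Smc2, Top2a, Ube2c, Aurkb and Hmmr at the lower left.

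Cumulus libraries held more mitosis transcripts than mural libraries at 0 and 4 h and fewer at 12 h. The part of oocyte RNA in these differences was not tested beyond the covariate. At 0 h 23 of 45 genes were called higher in cumulus cells, beside 21.5% of all genes, and 1 lower, beside 25.3%, with a median of 0.43. The largest differences were those of Pttg1 (1.15 ± 0.41, adjusted p = 0.0297), Birc5 (1.07 ± 0.22, adjusted p = 0.000833) and Ube2c (0.96 ± 0.14, adjusted p = 2.73e-05). That of Pttg1 was lost in 4 of the 6 refits that leave out a library, without replicate 2 or 3 of the cumulus or replicate 1 or 2 of the mural group (adjusted p from 0.127 to 0.146). Anln was the gene called lower (-0.51 ± 0.11, adjusted p = 0.00137), at 90, 77.4 and 77.2 CPM in cumulus beside 122, 114 and 113 in mural libraries. With the oocyte covariate 17 of the 24 calls remained in their direction. Mki67 and Top2a were not called between the cell types at 0 h. Mki67 was at 480, 394 and 425 CPM in cumulus and 451, 417 and 356 in mural libraries, which overlap (0.08 ± 0.12), and Top2a differed by 0.00 ± 0.15. In replicate 1, the cumulus library with the lowest oocyte sum at 0 h, 34 genes were above every mural library, where this held for 36.4% of all genes, and the median log2 ratio to the mural mean was 0.385.

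At 4 h 33 genes were called higher in cumulus cells, beside 27.6% of all genes, and 1 lower, beside 27%, with a median of 0.54. Pttg1 (2.70 ± 0.43), Bub1b (2.03 ± 0.32) and Birc5 (1.61 ± 0.23) differed most. Without replicate 3 of the cumulus group the difference was 1.82 for Pttg1 (adjusted p = 0.000234) and 1.27 for Bub1b (adjusted p = 1.08e-07). Cdc25c, at 16.9, 21.2 and 17.1 CPM in cumulus and 27.3, 24.3 and 23.4 in mural libraries, was the gene called lower (-0.45 ± 0.15, adjusted p = 0.0184). That call was lost without replicate 1 or 3 of the cumulus group or replicate 1 of the mural group (adjusted p = 0.0648, 0.0745 and 0.0662). Every cumulus library of 4 h had a higher oocyte sum (1538 to 9335 CPM) than every mural one (198.9 to 305.7). The covariate and the cell type can therefore not be fully told apart at 4 h. With the oocyte covariate 13 genes were called at 4 h, all higher, and 8 of the 34 calls remained. Those lost include Pttg1 (0.38, adjusted p = 0.541), Bub1b (0.61, adjusted p = 0.331) and Birc5 (0.92, adjusted p = 0.0556).

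At 12 h the summed level was lower in cumulus libraries. Cumulus libraries had 2643, 2521 and 2520 CPM of the 45 genes and mural libraries 3345, 3191 and 3347. Called lower in cumulus cells were 18 genes, beside 20.5% of all genes, and called higher 0, beside 18%, with a median of -0.36. All cumulus values lay below all mural values for 38 of the 45, where this held for 32.5% of all genes. The largest differences were those of Bub1b (-0.96 ± 0.32, adjusted p = 0.0233), Kif23 (-0.88 ± 0.24, adjusted p = 0.00742) and Nuf2 (-0.82 ± 0.18, adjusted p = 0.00127). That of Bub1b was lost without replicate 1 or 3 of the cumulus group or replicate 1 of the mural group (adjusted p = 0.0626, 0.0675 and 0.0616). With only these groups in the fit 39 genes were called (38 lower and 1 higher) and with library totals 31, all lower, while 12 were called without replicate 3 of the cumulus group. The median was -0.39 with only these groups, beside -0.03 for all genes. With library totals it was -0.49, beside -0.19. With the oocyte covariate 13 were called, 12 lower and 1 higher, and 7 of the 18 calls remained in their direction. The median was then -0.11, and relative to that of all genes -0.02.

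The change from 0 to 12 h differed between the cell types for 34 of the 45 genes, all with the greater fall in cumulus cells, where 20% of all genes tested had a lower and 20.1% a higher difference. The median difference was -0.76. The 3 largest were those of Bub1b (-1.90 ± 0.45, adjusted p = 0.0026), Birc5 (-1.45 ± 0.31, adjusted p = 0.00144) and Nuf2 (-1.39 ± 0.25, adjusted p = 0.000257). Ccna2 differed by -1.23 ± 0.17 (adjusted p = 1.79e-05). Of the 11 not called, Anln (-0.12 ± 0.16), Cenpe (-0.17 ± 0.23), a motor of the kinetochore, and Smc2 (-0.20 ± 0.21) had the smallest differences. Of the 34 calls 24 held when each library was left out in turn. With the oocyte covariate 17 genes were called, 16 lower and 1 higher. The median difference was then -0.50, beside 0.04 for all genes.

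The change from 0 to 4 h was called different between the cell types for Anln alone (0.56 ± 0.16, adjusted p = 0.0254), beside 6.78% of all genes with a higher and 7.26% with a lower difference. Anln fell in mural cells at 4 h (-0.46 ± 0.11) and was at 90, 77.4 and 77.2 and then 78.8, 78.3 and 106 CPM in cumulus cells. The call was lost without replicate 2 of the mural cells at 4 h (adjusted p = 0.0527), so no gene was then called. Without replicate 1 of cumulus cells at 4 h 2 genes were called, and without replicate 2 10.

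Members can also be listed by their promoter motifs. Of the 25 genes with both motifs 9 were called lower in mural cells at 4 h and 13 at 12 h, with medians of -0.27 and -0.53. Of the 7 with neither, 3 and 5 were called lower, with medians of -0.34 and -0.70. In cumulus cells at 12 h all 25 with both motifs and 6 of the 7 with neither were called lower. Of all genes tested 22.3% were called lower in mural cells at 4 h, 19% at 12 h and 32.9% in cumulus cells at 12 h. No test compared the classes.

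Other genes of the cell cycle, from lists of textbook genes, were counted in the same way, at 12 h against 0 h, where of all genes tested 19% were called lower and 21.6% higher in mural and 32.9% and 31.2% in cumulus cells. Of 79 further mitosis genes 50 were called lower and 4 higher in mural cells, and 71 lower and 3 higher in cumulus cells, with medians of -0.60 and -1.13. Mis18a, which helps load CENP-A at centromeres, was an exception: it was at 21.9, 19.4 and 16.1 CPM at 0 h and 119, 133 and 112 at 12 h in mural libraries (2.67 ± 0.15, adjusted p = 1.79e-10). Iqgap3, a scaffold protein, fell in mural libraries from 78.2, 75.4 and 68.5 CPM to 26.1, 22 and 27.2 (-1.56 ± 0.24, adjusted p = 4.43e-05). In cumulus libraries Spc24, a subunit of the NDC80 complex, fell from 85.9, 66.4 and 68.1 CPM to 12.1, 10.3 and 12.7 (-2.65 ± 0.15, adjusted p = 6.93e-11). Haspin, a kinase of histone H3, fell there from 12.4, 24.2 and 25.6 CPM to 4.14, 2.43 and 3.54 (-2.62 ± 0.35, adjusted p = 3.9e-06). Each of these 3 was without overlap. Of 36 genes of DNA replication 34 were called lower and 1 higher in mural and 36 lower in cumulus cells, with medians of -0.91 and -1.91, below those of the mitosis set. Mcm3, a subunit of the replicative helicase, fell in mural libraries from 235, 190 and 170 CPM to 61.7, 52.8 and 62.4 (-1.75 ± 0.15, adjusted p = 4.32e-08). Cdc6, which loads that helicase, fell in cumulus libraries from 37.3, 32.3 and 33.1 CPM to 3.43, 2.26 and 3.8 (-3.43 ± 0.24, adjusted p = 1.03e-09), and its change in mural libraries was -1.67 ± 0.22 (adjusted p = 7.45e-06). Chaf1b, a subunit of chromatin assembly factor 1, fell in cumulus libraries from 50.2, 36.9 and 43.4 CPM to 5.85, 4.31 and 7.66 (-2.87 ± 0.20, adjusted p = 1.05e-09).

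Of the 17 subunits and regulators of the APC/C, 5 were called lower and 2 higher in mural and 8 lower and 2 higher in cumulus cells at 12 h. As shares these are 29.4% lower and 11.8% higher, then 47.1% and 11.8%, beside 19% and 21.6%, then 32.9% and 31.2%, of all genes tested. Fbxo5, the inhibitor EMI1, fell most in both (-1.05 ± 0.18 in mural cells, adjusted p = 9.85e-05, and -2.36 ± 0.18 in cumulus cells, adjusted p = 3.81e-09). The core subunits Anapc7 in mural (-0.91 ± 0.09, adjusted p = 1.05e-07) and Anapc13 in cumulus cells (-1.24 ± 0.12, adjusted p = 5.45e-08) came next. Of the 19 DREAM, B-Myb and E2F genes 8 were called lower and 3 higher in mural and 11 lower and 4 higher in cumulus cells, shares of 42.1% and 15.8%, then 57.9% and 21.1%. Mybl2, which encodes B-Myb, was at 63.2, 88.8 and 95.5 CPM at 0 h, 88.8, 61.3 and 215 at 4 h, then 12.1, 10.1 and 14.5 at 12 h in cumulus libraries (-2.75 ± 0.33, adjusted p = 1.09e-06), again with its highest value in replicate 3 of 4 h. E2f1, an activator of the E2F family, fell there from 95.9, 101 and 106 CPM to 16.3, 14.6 and 14.8 (-2.73 ± 0.26, adjusted p = 7.54e-08). E2f2, of the same family, rose there from 33, 30.5 and 32.9 CPM to 104, 94.5 and 110, a log2 change of 1.675. E2f7, a repressor of the E2F family, fell in mural libraries from 49.8, 45.8 and 36.2 CPM to 16.7, 12.8 and 15.2 (-1.56 ± 0.17, adjusted p = 8.29e-07). E2f8, another repressor, fell from 42.9, 37.4 and 29 to 15.2, 12.5 and 14 CPM (-1.39 ± 0.18, adjusted p = 5.48e-06). Rbl2, which encodes p130 of the DREAM complex, was at 42.9, 41.1 and 41.6 CPM at 0 h in mural libraries. It was at 29.9, 22.8 and 27.7 CPM at 4 h, then 56.3, 60.1 and 58.2 at 12 h. The rise from 4 to 12 h was 1.12 ± 0.13 (adjusted p = 1.78e-06).

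The list of D-type cyclins and inhibitors of cyclin-dependent kinases also holds other genes, among them Cdk6, Btg1, Btg2, Gadd45a and Gadd45g. More of the list was called higher than lower at 12 h. In mural cells 9 of 18 were called higher and 5 lower, and in cumulus cells 9 higher and 6 lower, at medians of 0.66 and 0.88. The shares are 50% higher and 27.8% lower in mural cells and 50% and 33.3% in cumulus cells, so the share called lower in cumulus cells is near that of all genes (32.9%). Cdkn1a, which encodes the inhibitor p21, rose in mural libraries from 8.24, 10.3 and 7.12 CPM to 61.4, 89.4 and 68 at 4 h, then 170, 211 and 172 at 12 h (4.43 ± 0.26, adjusted p = 3.6e-10). In cumulus libraries it was at 8.71, 9.96 and 10.5, then 61.4, 110 and 46.3, then 151, 152 and 157 CPM, without overlap in either cell type. Cdkn2b, the inhibitor p15, was at 0.137, 0.2 and 0 CPM at 0 h and 8.07, 8.94 and 9.09 at 12 h in cumulus libraries and had the largest change of these lists there (6.22 ± 0.59, adjusted p = 4.9e-08, with few counts at 0 h). Gadd45a, a stress-induced gene, rose there from 8.95, 4.92 and 7.56 CPM to 200, 275 and 218 (5.02 ± 0.23, adjusted p = 4.78e-12). Btg2, an antiproliferative gene, rose in mural libraries from 31.1, 24.9 and 21.1 CPM to 273, 320 and 264 (3.48 ± 0.30, adjusted p = 4.78e-08). Ccnd2, cyclin D2, had the largest fall of the list in both cell types. It went from 609, 589 and 485 to 204, 151 and 191 CPM in mural (-1.62 ± 0.18, adjusted p = 7.03e-07) and from 671, 519 and 525 to 59.6, 48.8 and 59.1 CPM in cumulus libraries (-3.36 ± 0.19, adjusted p = 5.66e-11).

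**Figure D5:**
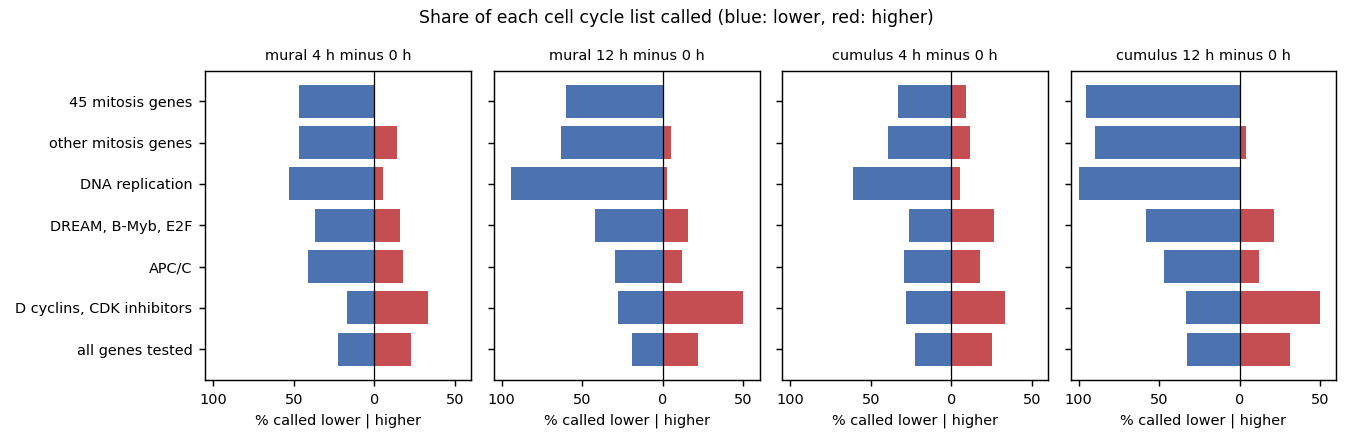
Percent of each cell cycle list called lower (blue, to the left) and higher (red, to the right) at 4 and 12 h against 0 h in mural and cumulus cells, with all genes tested at the bottom. The lists of mitosis and DNA replication genes lie mostly to the left at 12 h, with 36 of 36 replication genes called lower in cumulus cells, and the list of D cyclins and inhibitors lies on both sides.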

How the data were processed

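RNA was sequenced from mural granulosa and cumulus cells of mouse ovary, 18 libraries in 6 groups of 3. The values are whole-number counts of uniquely mapped reads per gene, deposited by the authors as 1 table. Per the series' design text they were made in CLC Genomics Workbench with default parameters, and GRCm38 is the build per the submitters' processing notes. Which annotation was used, and whether counting used strand, is not given in the sources used here. Members (45 genes) and the other lists were chosen with earlier results of these data known. Genes passed a low-count filter (filterByExpr, minimum count 10), scaling used the trimmed mean of M values, and a model with 1 mean per group was fitted to all libraries with the quasi-likelihood test of edgeR 4.0.16 (limma 3.58.1, R 4.3.3) for 11 comparisons. P-values were adjusted by Benjamini-Hochberg over 19941 genes, and genes under 0.05 are called. The code was tested on simulated data. By rule the text names the 2 members of each role with the highest mean level, the 3 called members with the largest rise and fall of each comparison within a cell type, the 3 largest called differences of cell types, members called against the median's direction, and of other lists the 2 called genes with the largest change (applied here at 12 h against 0 h). Further members and other genes were named after their values were seen. Alternatives were DESeq2 1.42.0, other scalings and filters, only the groups compared, a replicate block, an oocyte marker covariate, and leaving out libraries. Library totals were 32211630 to 47919446 counts.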

Additional observations from a re-analysis of the deposited data

Results flagged for a closer look

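For 35 of the member and comparison pairs the change after hCG differed between cumulus and mural cells by a test of the difference itself (edgeR's quasi-likelihood test, adjusted p under 0.05). Values are the log2 change in cumulus cells minus that in mural cells. Groups of 3 libraries were not tested for outlying samples. From 0 to 4 h only Anln differed, by 0.56.

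From 0 to 12 h 34 genes differed, all with the lower value in cumulus cells. Of the CDK1 and cyclin group, Ccna2 differed by -1.23, Ccnb1 by -1.05, Ccnf by -0.96, Cdk1 by -0.91, Ccnb2 by -0.71 and Cdc25c by -0.58. Among the Polo and Aurora kinases, Aurka differed by -1.26, Plk1 by -0.97 and Aurkb by -0.81. In the spindle checkpoint, Bub1b differed by -1.9, Ttk by -0.86, Mad2l1 by -0.54 and Bub1 by -0.52. Of the genes of anaphase, Ube2c differed by -1.14, Espl1 by -0.8 and Cdc20 by -0.76. Both chromosomal passenger genes differed, Birc5 by -1.45 and Incenp by -0.89.

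At the kinetochore, Nuf2 differed by -1.39, Cenpf by -0.82 and Cenpa by -0.64. Among the spindle genes, Kif4 differed by -1.06, Nusap1 by -0.96, Tpx2 by -0.81, Hmmr by -0.69, Kif2c by -0.63 and Kif11 by -0.47. For cytokinesis, Kif23 differed by -1.37, Prc1 by -0.76 and Racgap1 by -0.68. Of chromosome structure, Ncapg differed by -0.92, Smc4 by -0.64 and Mki67 by -0.43, and the transcription factor gene Foxm1 by -0.85.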

How the results depend on the processing

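With library totals as the scale the all-gene median shifted by -0.32 in mural cells at 4 h against 0 h and by -0.25 in cumulus cells at 12 h, while the members' median relative to it stayed at -0.28 and -1.19. With only the groups compared in the fit, 28 members were called in mural cells between 4 and 12 h, 10 in cumulus cells at 4 h against 0 h, 39 between cell types at 12 h and 0 for the difference from 0 to 4 h. With library totals 31 were called between cell types at 12 h and 5 for the difference from 0 to 4 h, where DESeq2 called 2. With the oocyte covariate 25 were called in cumulus cells at 12 h against 0 h, 20 against 4 h, 13 between cell types at 4 h and 17 for the difference from 0 to 12 h. The cause of these moves was not tested.

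Leaving out 1 library gave 15 to 26 members called in mural cells at 4 h, 22 to 28 at 12 h and 10 to 12 from 4 to 12 h. In cumulus cells the ranges were 13 to 26, 42 to 43 and 39 to 42. Between cell types they were 19 to 23 at 0 h, 31 to 35 at 4 h and 12 to 18 at 12 h, and for the differences 0 to 10 from 0 to 4 h and 25 to 35 from 0 to 12 h.

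With the replicate number as a block 23, 27 and 15 members were called in the mural comparisons, 19, 43 and 42 in the cumulus comparisons, 24, 34 and 19 between cell types and 1 and 32 for the differences, within 1.5 times the counts without the block. Deviations of same-numbered libraries had correlations from -0.29 to 0.403 over 45 pairs, so the numbers were not taken to pair libraries.

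Sign changes are given here only for genes called before or after the change of fit. Some log2 values of these genes changed sign with the oocyte covariate. In cumulus cells at 12 h against 0 h these were Bub1b 0.19, Cenpe 0.20, Prc1 0.30 and Pttg1 3.26, and against 4 h Bub1b 0.21, Cenpe 0.13, Hmmr -0.97, Nusap1 0.26 and Pttg1 3.07. Between cell types they were Pttg1 -0.056 and Smc2 0.32 at 0 h, Cdc25c 0.13, Hmmr 0.46, Ncapg -0.0742 and Top2a 0.53 at 4 h, and Bub1b 0.51, Espl1 0.0325, Kif23 0.19 and Kif4 0.34 at 12 h. For the difference from 0 to 12 h they were Bub1b 0.31, Espl1 0.20, Kif23 0.24, Kif4 0.39, Ncapg 0.77, Nusap1 0.19, Prc1 0.19, Pttg1 2.86 and Ttk 0.67. Without cumulus replicate 1 of 0 h and replicate 3 of 4 h, Bub1b was -0.41, Kif23 -0.30, Kif4 -0.26, Ncapg -0.28 and Pttg1 -0.14 at 4 h against 0 h. The cause was not tested.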
